A study of Mus musculus with 4 samples.

Results

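The mouse major histocompatibility complex (MHC) genes described here were the features whose symbol starts with H2-, taken from the gene list of 4 single-cell RNA libraries. There were 34 of them among 31053 features. All are protein coding and lie on chromosome 17 between positions 33996017 and 37483552 (mm10, the build named in the submitters' processing notes; gene positions from GENCODE M21 on GRCm38), a stretch of 3487.535 kb. By role, 24 were class I heavy chains, 4 were class II chains, 5 were class II loading factors, and H2-Ke6 encodes a steroid dehydrogenase that lies within the complex.

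The libraries were made from cells released with Liberase from tibial and femur epiphyses, the ends of the long bones of the knee, and captured on the Chromium v3 platform. They were from a Sox9 mutant (Sox9fl:fl AcanCreERT2/+) at postnatal day 13 and a wild type at day 13, and from the Sox9 mutant at day 19 and a wild type at day 19, with 1 library for each genotype and age. In the mutant, floxed Sox9 alleles are cut by a tamoxifen-dependent Cre made where Acan, the aggrecan gene of cartilage, is active, so deletion is directed to chondrocytes and not to blood or marrow cells. Dosing, mouse strain and the number of animals behind each library are not stated in the labels. The series' design text names other ages and a further genotype than the sample labels, and the labels were followed. The 28412 cells kept were 6895 at day 13 in the mutant and 5932 in the wild type, and 8931 at day 19 in the mutant and 6654 in the wild type. Libraries held between 70507107 and 76080803 UMIs (unique molecular identifiers, each marking 1 captured RNA), and any pair shared 19 to 44 barcodes. Sox9 itself, the targeted gene, was at 196 CPM (UMIs of a gene per 1000000 UMIs) in mutant and 359 CPM in wild type chondrocyte-like cells at day 13, and at 174 CPM in mutant and 460 CPM in wild type cells at day 19, so it was lower but present in mutant cells.

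Class I molecules sit on nearly every nucleated cell as a heavy chain joined to beta-2 microglobulin and show peptides from inside the cell to CD8 T cells. H2-K1 and H2-D1 are the classical heavy chains, and the H2-Q, H2-T and H2-M families are mostly nonclassical, with narrower expression or specialised ligands. Class II molecules are alpha and beta chains (H2-Aa with H2-Ab1 forms I-A, and H2-Eb1 is the beta chain of I-E) that show peptides from outside the cell to CD4 T cells. They belong chiefly to B cells, dendritic cells and activated macrophages, need the invariant chain Cd74 for assembly, receive their peptide with the help of H2-DM (H2-DMa with H2-DMb1 or H2-DMb2), and are switched on by the transactivator Ciita through a conserved promoter module that includes the Y box.

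Promoters of the members on which the results turn are shown first, as 250 bases before and 50 bases after the start of a RefSeq transcript on GRCm38.p6, 5′ to 3′ on the gene's strand, with matched motifs in capitals. Of the 34 members, 31 had an entry, and H2-Ab1, H2-T24 and H2-Q1 had none. The 3 motifs were searched on both strands: the Y box core CTGATTGG, the interferon response core GAAANNGAA and the kappa B core GGGATTCCC, none of which overlapped another in these promoters. H2-Aa (chr17:34287774-34288073, minus strand) stands for the class II chains of antigen-presenting cells, H2-DMb1 (chr17:34152941-34153240, plus strand) and H2-Q7 (chr17:35438905-35439204, plus strand) for members that were lower in mutant chondrocyte-like cells, and H2-T22 (chr17:36042693-36042992, minus strand) for the member that was lower in the mutant across cell classes.
H2-Aa: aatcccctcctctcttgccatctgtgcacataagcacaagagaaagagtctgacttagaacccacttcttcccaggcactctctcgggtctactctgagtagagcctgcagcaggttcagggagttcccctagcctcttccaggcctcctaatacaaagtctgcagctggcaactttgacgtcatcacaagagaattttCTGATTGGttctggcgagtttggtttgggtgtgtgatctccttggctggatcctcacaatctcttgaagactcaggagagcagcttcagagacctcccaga
H2-DMb1: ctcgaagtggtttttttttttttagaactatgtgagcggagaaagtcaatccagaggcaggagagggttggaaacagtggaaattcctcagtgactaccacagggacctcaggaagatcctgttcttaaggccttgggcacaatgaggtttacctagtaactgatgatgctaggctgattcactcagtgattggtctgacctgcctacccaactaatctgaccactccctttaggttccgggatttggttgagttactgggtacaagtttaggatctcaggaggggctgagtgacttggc
H2-Q7: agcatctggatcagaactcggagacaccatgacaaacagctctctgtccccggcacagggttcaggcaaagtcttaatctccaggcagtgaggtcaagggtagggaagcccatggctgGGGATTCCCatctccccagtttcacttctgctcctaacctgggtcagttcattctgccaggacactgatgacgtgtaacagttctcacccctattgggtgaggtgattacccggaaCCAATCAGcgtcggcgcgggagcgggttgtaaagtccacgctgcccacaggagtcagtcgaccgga
H2-T22: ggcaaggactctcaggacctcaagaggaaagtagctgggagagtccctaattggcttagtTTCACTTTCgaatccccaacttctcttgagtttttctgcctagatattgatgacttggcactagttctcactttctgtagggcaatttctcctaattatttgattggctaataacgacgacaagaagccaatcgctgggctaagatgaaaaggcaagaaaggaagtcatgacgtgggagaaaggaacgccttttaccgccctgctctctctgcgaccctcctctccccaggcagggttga
The Y box core was in the promoters of 17 of the 31 members, H2-Aa, H2-Eb1, H2-K1, H2-D1 and H2-Q7 among them, against 1271 of all 27025 genes with a promoter entry (4.7%). The kappa B core was in 4 members (H2-K1, H2-D1, H2-Q6 and H2-Q7) and in 0.414% of those genes. The interferon response core was in H2-T22 and H2-T23 and in 9.76% of those genes. A match describes the letters in the window, not a bound site.

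Of the 34 members, 7 had no UMI in any kept cell (H2-M1 and the 6 genes H2-M10.1 to H2-M10.6), 8 had between 1 and 99 UMIs in all (H2-Eb2, H2-Q1, H2-Q2, H2-T3, H2-M11, H2-M9, H2-M5 and H2-M2), and 19 had 100 or more. These 19 reached 20 CPM in at least 1 library of at least 1 cell class. Cells were grouped into 27 clusters without using the members or Cd74, and clusters were named from marker lists, with "-like" added because the names were rebuilt here. The plot of all 19 members by class and library shows 3 kinds of pattern: H2-K1 and H2-D1 in every class, class II chains high in few classes, and nonclassical members at low levels with scattered peaks.

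**Figure D1:**
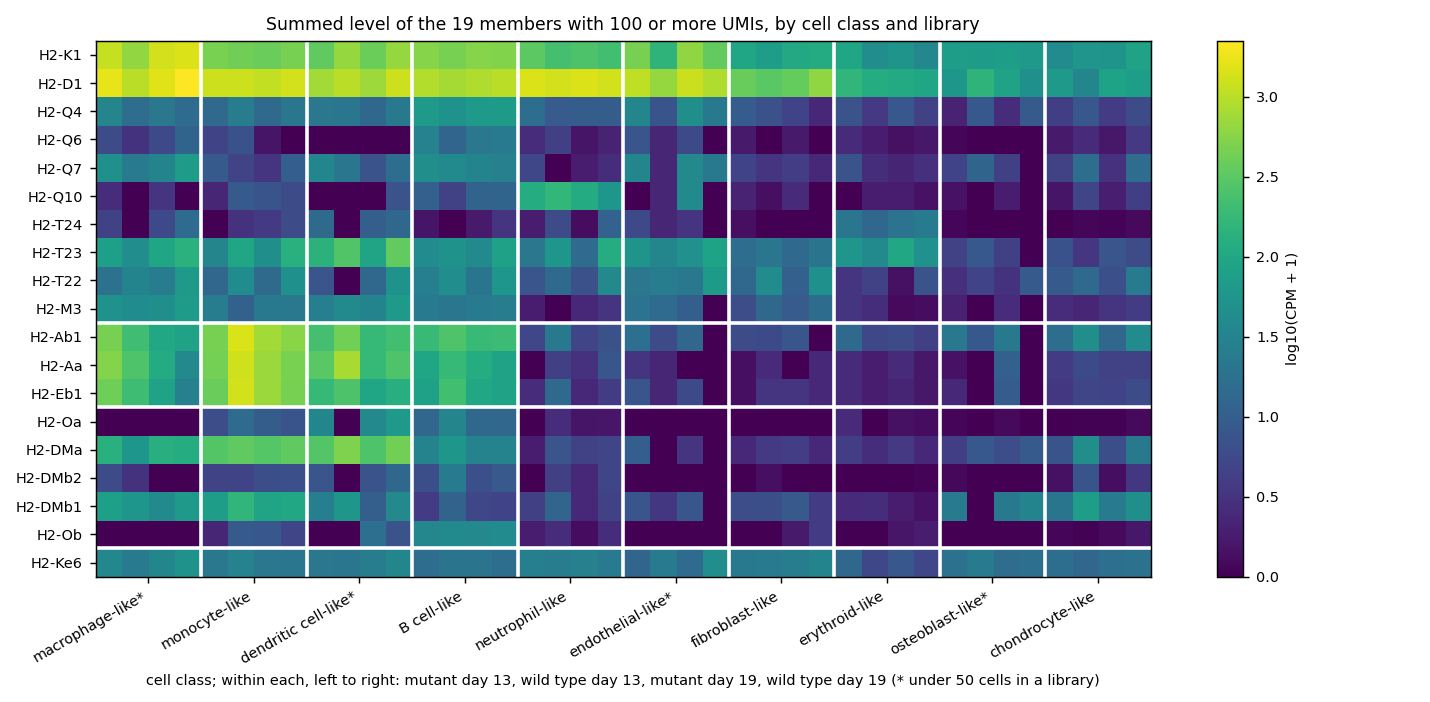
Level of the 19 members with 100 or more UMIs (rows, by role) in 10 cell classes (column blocks), as log10 of CPM + 1 from UMIs summed per class and library; within each block the columns are mutant day 13, wild type day 13, mutant day 19 and wild type day 19. H2-K1 and H2-D1 are bright in every block, while H2-Aa, H2-Ab1 and H2-Eb1 are brightest in the monocyte-like block and H2-Q10 in the neutrophil-like block.

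Class I was high in macrophage-like and low in chondrocyte-like and osteoblast-like cells. Summed over the class I members, macrophage-like cells had 3084 CPM in the mutant and 1796 CPM in the wild type at day 13, and 3154 CPM in the mutant and 4125 CPM in the wild type at day 19. The same sum in chondrocyte-like cells was 129 CPM in the mutant and 134 CPM in the wild type at day 13, and 161 CPM in the mutant and 212 CPM in the wild type at day 19. The ranges of the 4 libraries did not overlap between macrophage-like and chondrocyte-like cells, while osteoblast-like cells (125 to 248 CPM) overlapped the chondrocyte-like range. Neutrophil-like cells (1757 to 1975 CPM), monocyte-like cells (1595 to 2013 CPM) and B cell-like cells (1468 to 1825 CPM) overlapped each other and the lowest macrophage-like library, as did the small dendritic cell-like (1275 to 2430 CPM) and endothelial-like (900.5 to 2057 CPM) classes. Fibroblast-like cells (469 to 817 CPM) lay below all of these, and erythroid-like cells (209 to 350 CPM) lay lower still and met the top of the chondrocyte-like range.

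Single class I members had their own places. H2-Q10, a class I protein that is secreted and best known from liver, was at 117 CPM in mutant and 163 CPM in wild type neutrophil-like cells at day 13, and at 116 CPM in mutant and 55.8 CPM in wild type cells at day 19. In the other 5 classes with 50 or more cells in every library it stayed at or below 11.2 CPM. H2-Q10 also passed 20 CPM in the small endothelial-like class, in the 103 mutant cells at day 19, so it was not confined to neutrophil-like cells. H2-T24, a nonclassical member, was at 12.1 to 22 CPM in the 4 erythroid-like libraries. H2-M3, which presents formylated peptides, was at 41.5 to 67.1 CPM in macrophage-like cells and 19.4 to 25.7 CPM in B cell-like cells, against 1.27 to 2.79 CPM in chondrocyte-like cells. H2-Q4 was at 52 to 65.1 CPM in B cell-like cells. H2-Ke6 was at 11.7 to 16.8 CPM in chondrocyte-like and 14.7 to 18.7 CPM in B cell-like cells. It overlaps Gm20427 on the same strand and shares 57.8% of its 90-base windows at transcript ends with it, so its counts are uncertain.

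Class II chains were carried by B cell-like, monocyte-like, macrophage-like and dendritic cell-like cells, the last a small cluster led by Siglech and Ccr9. In monocyte-like cells H2-Aa was at 440 CPM in the mutant and 1291 CPM in the wild type at day 13, and at 694 CPM in the mutant and 468 CPM in the wild type at day 19. H2-Eb1 was at 386 CPM in mutant and 1320 CPM in wild type monocyte-like cells at day 13, and at 704 CPM in mutant and 461 CPM in wild type cells at day 19. The mutant was thus below the wild type at day 13 and above it at day 19 for both chains. The level of the class depended on the filter on cells and the clustering rerun after it. Class II summed over its chains and all libraries was 2050 CPM here and 193 CPM where barcodes with 200 or more genes were kept. That setting had fewer monocyte-like cells (108 mutant and 86 wild type at day 13, 289 mutant and 132 wild type at day 19). Its dendritic cell-like cells were more: at day 13, 39 mutant and 49 wild type against 27 and 12 here, and at day 19, 125 mutant and 77 wild type against 76 and 56. Which cells changed class was not tested. Nearly all class II UMIs of the monocyte-like class used here were in few cells: those with 10 or more class II UMIs were 8 of 122 mutant and 18 of 135 wild type cells at day 13, and 35 of 347 mutant and 13 of 160 wild type cells at day 19. They held 97.9% to 99.8% of the class II UMIs of their library. Ly6c2, a marker of classical monocytes, was at 17.6 to 176 CPM in them against 1085 to 2311 CPM in the remaining monocyte-like cells. Cd209a, a marker of monocyte-related dendritic cells, was at 247 to 714 CPM in them against 5.05 to 18 CPM. The part of this share of cells in the genotype difference was not tested beyond these values.

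In B cell-like cells the class II chains and H2-O differed by stage. The 4 clusters were led by Vpreb1, Dntt and Igll1 (cluster 23), by Il7r and genes of dividing cells (cluster 19), by Rag1 and Igkc (cluster 18) and by Ms4a1 and Ighd (cluster 15), genes of successively later stages of B cell development. H2-Aa in cluster 23 was at 2.27 CPM in the mutant and 0 CPM in the wild type at day 13 (which allows up to 5.91 CPM), and at 5.21 CPM in the mutant and 2.47 CPM in the wild type at day 19. In cluster 15 it was at 342 CPM in the mutant and 639 CPM in the wild type at day 13, and at 614 CPM in the mutant and 455 CPM in the wild type at day 19. H2-Ab1 was already at 57.1 to 80 CPM in the 4 libraries of cluster 23 and at 360 to 775 CPM in those of cluster 15.

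H2-Oa and H2-Ob are the chains of H2-O, which holds H2-DM back in B cells. H2-Oa was at 48.8 CPM in the mutant and 104 CPM in the wild type in cluster 15 at day 13, and at 90.1 CPM in the mutant and 82.5 CPM in the wild type at day 19. It was at 1.54 to 3.38 CPM in 3 libraries of cluster 19, below its 6.15 to 14.1 CPM in the earlier cluster 23. In the wild type at day 13, cluster 19 had 34 cells and no UMI of H2-Oa, which allows up to 15.8 CPM (3 UMIs). H2-Ob was at 62.1 to 106 CPM in cluster 15 and at 15.8 to 30.7 CPM in cluster 23, with no overlap. H2-DMa was at 88.8 to 205 CPM in cluster 15 and 5.91 to 20.4 CPM in cluster 23, also with no overlap. Classical class I followed another order: H2-D1 was at 1229 to 1587 CPM in cluster 18, against 795 to 1236 CPM in cluster 15 and 508 to 701 CPM in cluster 23. H2-Oa overlaps BC051537, and H2-Eb1 overlaps Gm20513, each on the other strand, and how counting handled strand is not stated in the labels or file headers.

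**Figure D2:**
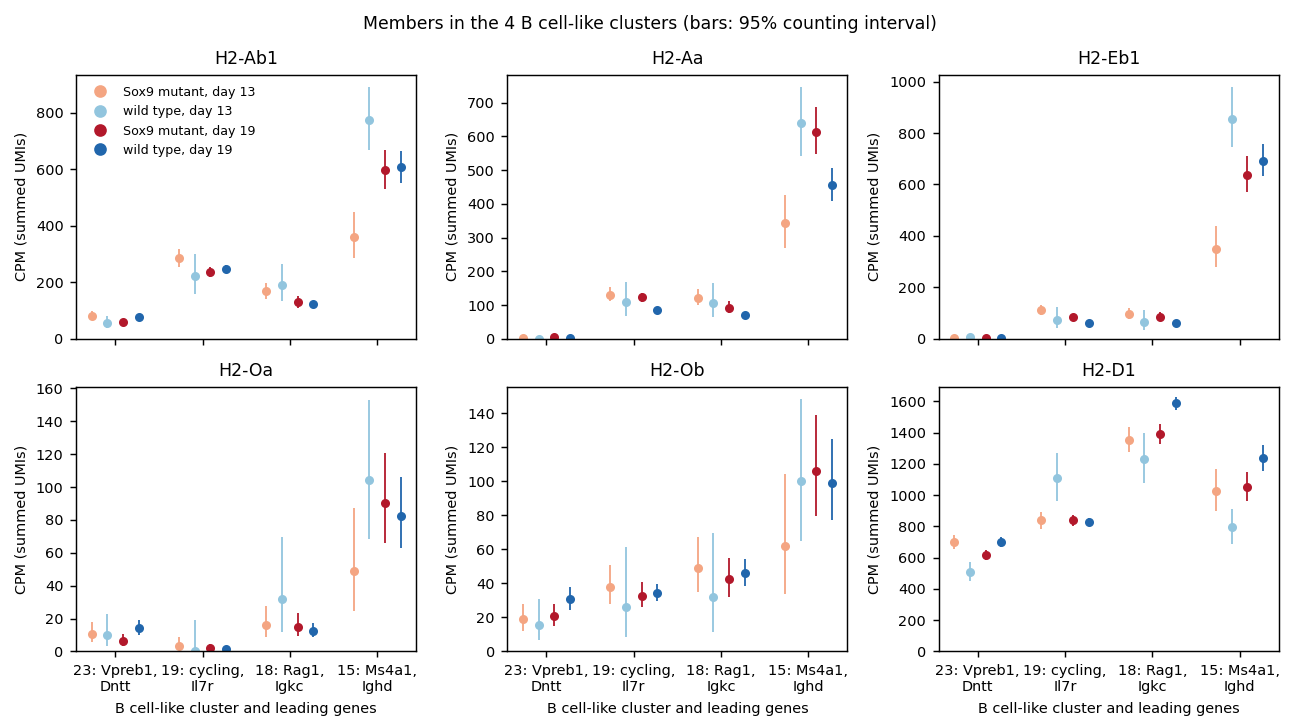
CPM of 6 members (panels) in the B cell-like clusters 23, 19, 18 and 15 (x axis), 1 point per library with its 95% counting interval; colours mark genotype and day. H2-Aa and H2-Eb1 are near 0 in cluster 23 and highest in cluster 15, where the mutant at day 13 lies below the other 3 libraries.

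Between genotypes, 1 of 18 members tested differed in B cell-like cells, which is read against 1.87% of all genes tested. It was H2-T22, described further on. The 3 members H2-T22, H2-T23 and H2-DMb2 had an unadjusted p under 0.05. All tests of genotype used edgeR's quasi-likelihood test with Benjamini-Hochberg adjustment over all genes of a class, with genotype and age as additive terms on 4 libraries. This left 1 residual degree of freedom, borrowed spread across genes, and took the genotype difference to be the same at both ages. H2-Aa had a log2 ratio of -0.20 ± 0.26 (SE, adjusted p = 0.827), mutant over wild type, and H2-Eb1 of -0.55 ± 0.29 (SE, adjusted p = 0.541), in B cell-like cells. In monocyte-like cells 0 of 12 members passed (edgeR; 2 had an unadjusted p under 0.05, and 0.109% of all genes passed).

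In chondrocyte-like cells most members tested differed between genotypes. There 10 of 16 members tested were lower in the mutant and none was higher (13 had an unadjusted p under 0.05), while 11.1% of all genes tested were lower, 12.4% higher and 23.5% changed in either direction. The 16 had a median log2 ratio of -1.35, mutant over wild type, against 0.01 over all genes. The 10 were the loading factors H2-DMa, H2-DMb1 and H2-DMb2, the class II chain H2-Ab1, and the class I members H2-K1, H2-Q4, H2-Q6, H2-Q7, H2-Q10 and H2-T22. With library totals in place of edgeR's scaling the median over all genes moved to 0.20 and the count of all genes called to 2944 higher and 1005 lower in the mutant, against 1851 higher and 1658 lower with that scaling.

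H2-DMa was at 6.38 CPM in mutant and 44.8 CPM in wild type chondrocyte-like cells at day 13, and at 5.29 CPM in mutant and 21.5 CPM in wild type cells at day 19. H2-DMb1 was at 19.2 CPM in mutant and 73.2 CPM in wild type cells at day 13, and at 22.2 CPM in mutant and 46.2 CPM in wild type cells at day 19. Both mutant libraries were below both wild type libraries for each gene. The log2 ratio was -2.63 ± 0.22 (SE, adjusted p = 7.31e-05) for H2-DMa and -1.69 ± 0.22 (SE, adjusted p = 0.000783) for H2-DMb1. H2-DMb2, the alternative beta chain, was at 0.429 CPM in mutant and 6.31 CPM in wild type cells at day 13 and at 0.32 CPM in mutant and 2.5 CPM in wild type cells at day 19. H2-DMa overlaps Brd2 on the other strand and CR974462.3 on its own, and 15.9% of the 90-base end windows of H2-DMb1 are shared with H2-DMb2, so these counts could be split or shared.

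H2-Ab1 was at 15.2 CPM in mutant and 44.6 CPM in wild type chondrocyte-like cells at day 13, and at 11.7 CPM in mutant and 40.2 CPM in wild type cells at day 19 (log2 ratio -1.86 ± 0.14, SE, adjusted p = 3.8e-05). Its partner H2-Aa was at 2.92 CPM in mutant and 4.74 CPM in wild type cells at day 13 and at 3.52 CPM in mutant and 3.55 CPM in wild type cells at day 19, with a log2 ratio of -0.58 ± 0.29 (SE, adjusted p = 0.188). H2-Eb1 had a log2 ratio of -0.75 ± 0.26 (SE, adjusted p = 0.0681) and 2.49 to 5.01 CPM. Of the class II chains, H2-Ab1 alone passed the test.

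H2-Q7, whose protein carries the Qa-2 antigen, was at 3.55 CPM in mutant and 15.2 CPM in wild type chondrocyte-like cells at day 13, and at 2.02 CPM in mutant and 14.7 CPM in wild type cells at day 19 (log2 ratio -2.63 ± 0.22, SE, adjusted p = 6.05e-05). The genotypes did not overlap. H2-K1 was at 40.5 CPM in mutant and 55.1 CPM in wild type cells at day 13, and at 53.4 CPM in mutant and 84.8 CPM in wild type cells at day 19 (log2 ratio -0.75 ± 0.12, SE, adjusted p = 0.00255). Its mutant library at day 19 was close to the wild type library at day 13. H2-D1 was at 64.1 CPM in mutant and 33.5 CPM in wild type cells at day 13, and at 85.7 CPM in mutant and 71.8 CPM in wild type cells at day 19 (log2 ratio 0.41 ± 0.15, SE, adjusted p = 0.0835). H2-Q6 shares 24% of its 90-base end windows and H2-D1 8.93% with other class I genes, so reads could be split among them.

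These members were not spread evenly over cartilage. The chondrocyte-like class held 3057 mutant and 4087 wild type cells at day 13 and 2761 mutant and 931 wild type cells at day 19, in 8 clusters that the genotypes filled differently. Cluster 11, led by Il17b, Ppa1, Panx3 and Ihh, held 15 mutant and 944 wild type cells at day 13 and 2 mutant and 234 wild type cells at day 19. Clusters 4 (Myoc, Pi15) and 5 (Cryba2, Mmp13) were the reverse, with 1395 mutant and 18 wild type cells at day 13 in cluster 4 and 749 mutant and 37 wild type cells in cluster 5. Acan, a marker of the class, was at 1035 CPM in mutant and 4326 CPM in wild type chondrocyte-like cells at day 13, and at 1222 CPM in mutant and 4376 CPM in wild type cells at day 19.

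Cluster 11 held the highest wild type levels of the loading factors among these clusters. H2-DMa was at 133 CPM in its 15 mutant cells and 110 CPM in its wild type cells at day 13, and at 47 CPM in its wild type cells at day 19. H2-DMb1 was at 289 CPM in its mutant and 160 CPM in its wild type cells at day 13 and at 70.6 CPM in its wild type cells at day 19. H2-Ab1 was at 148 CPM in its mutant and 87.3 CPM in its wild type cells at day 13 and at 68.3 CPM in its wild type cells at day 19. The 2 mutant cells at day 19 had no UMI of these genes. In the few mutant cells of cluster 11 at day 13 these members were therefore not lower than in the wild type.

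H2-Aa and Cd74 did not follow H2-Ab1 there. H2-Aa was at 0 CPM in the mutant cells of cluster 11 at day 13, which allows up to 7.96 CPM. In the wild type cells of cluster 11 it was at 3.33 CPM at day 13 and 4.11 CPM at day 19. Per 100 UMIs of H2-Aa, wild type cells of cluster 11 had 2623 UMIs of H2-Ab1 at day 13 and 1664 at day 19, while monocyte-like cells had 105 to 123 and B cell-like cells 150 to 237 in the 4 libraries. Per 100 UMIs of H2-Ab1, wild type cells of cluster 11 had 8 UMIs of Cd74 at day 13 and 23.1 at day 19, against 277 to 299 in monocyte-like and 372 to 610 in B cell-like cells. Some other chondrocyte-like clusters shared this. Wild type cells of cluster 20 had 1167 UMIs of H2-Ab1 per 100 of H2-Aa at day 13 and 2200 at day 19. They had 15.5 UMIs of Cd74 per 100 of H2-Ab1 at day 13 and 20.1 at day 19. Cluster 9 had 721 to 2433 in the first measure and 17.8 to 39.7 in the second. Clusters 10 and 13 had 175 to 357 in the first. Within the B cell-like cells the early cluster 23 overlapped cluster 11 in both measures: it had 1109 to 3533 UMIs of H2-Ab1 per 100 of H2-Aa in the 3 libraries with any UMI of H2-Aa, on 3 to 11 UMIs of H2-Aa, and 11.3 to 37.9 UMIs of Cd74 per 100 of H2-Ab1. In H2-DMb1 they stood apart, with 9.09 to 100 UMIs per 100 of H2-Aa in those 3 libraries of cluster 23, against 4797 at day 13 and 1720 at day 19 in the wild type cells of cluster 11. The part of free RNA in these values was not tested.

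Shares of cells gave the same order after each cell was thinned to 2000 UMIs. H2-DMb1 was found in 2.76% of mutant and 8.44% of wild type chondrocyte-like cells at day 13, and in 3.74% of mutant and 8.03% of wild type cells at day 19. In neutrophil-like cells, which should lack it, the shares were 0.408% in the mutant and 0% in the wild type (upper exact bound 3.24%) at day 13 and 0.139% in the mutant and 1.28% in the wild type at day 19 (median depth 1760 to 3080 UMIs, against 9460 to 16300 UMIs in chondrocyte-like cells). Within cluster 11, 20.5% of wild type cells had the gene at day 13 (95% exact binomial interval 17.9% to 23.2%, counting error only) and 12% at day 19 (8.14% to 16.9%). H2-Aa, by contrast, was found in 0.538% of mutant and 1% of wild type chondrocyte-like cells at day 13 and in 0.674% of mutant and 0.869% of wild type cells at day 19, against 0% to 0.893% in neutrophil-like cells. All libraries but the wild type at day 13 were within that range.

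Cluster 20, the dividing cells of the class, was filled by both genotypes, and several members differed between genotypes within it. It was led by genes of dividing cells, and whether its mutant and wild type cells were of like cartilage states was not tested. It held 152 mutant and 176 wild type cells at day 13 and 79 mutant and 82 wild type cells at day 19. H2-DMb1 was at 14.3 CPM in mutant and 99.2 CPM in wild type cells at day 13, and at 12.5 CPM in mutant and 57.8 CPM in wild type cells at day 19 (log2 ratio -2.77 ± 0.25, SE, edgeR adjusted p = 1.45e-08, in a fit of this cluster in which 15.5% of all genes passed). H2-Q7 was at 12.8 CPM in mutant and 64.8 CPM in wild type cells at day 13, and at 5.47 CPM in mutant and 35.4 CPM in wild type cells at day 19 (log2 ratio -2.63 ± 0.28, SE, edgeR adjusted p = 2.02e-07). H2-Ab1 (-1.67), H2-DMa (-2.18), H2-Q6 (-2.09) and H2-T22 (-1.88) were also lower in the mutant on the log2 scale, and H2-T23 was higher (1.92). In cluster 10 (Pcp4, Sfrp5), where 12.5% of all genes passed, H2-DMb1 (-0.70), H2-Q4 (-2.47) and H2-T22 (-2.02) were lower and H2-K1 was higher (0.78). In clusters 9 and 13 the 1 member that passed was H2-T22, with 7.37% and 5.76% of all genes passing.

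**Figure D3:**
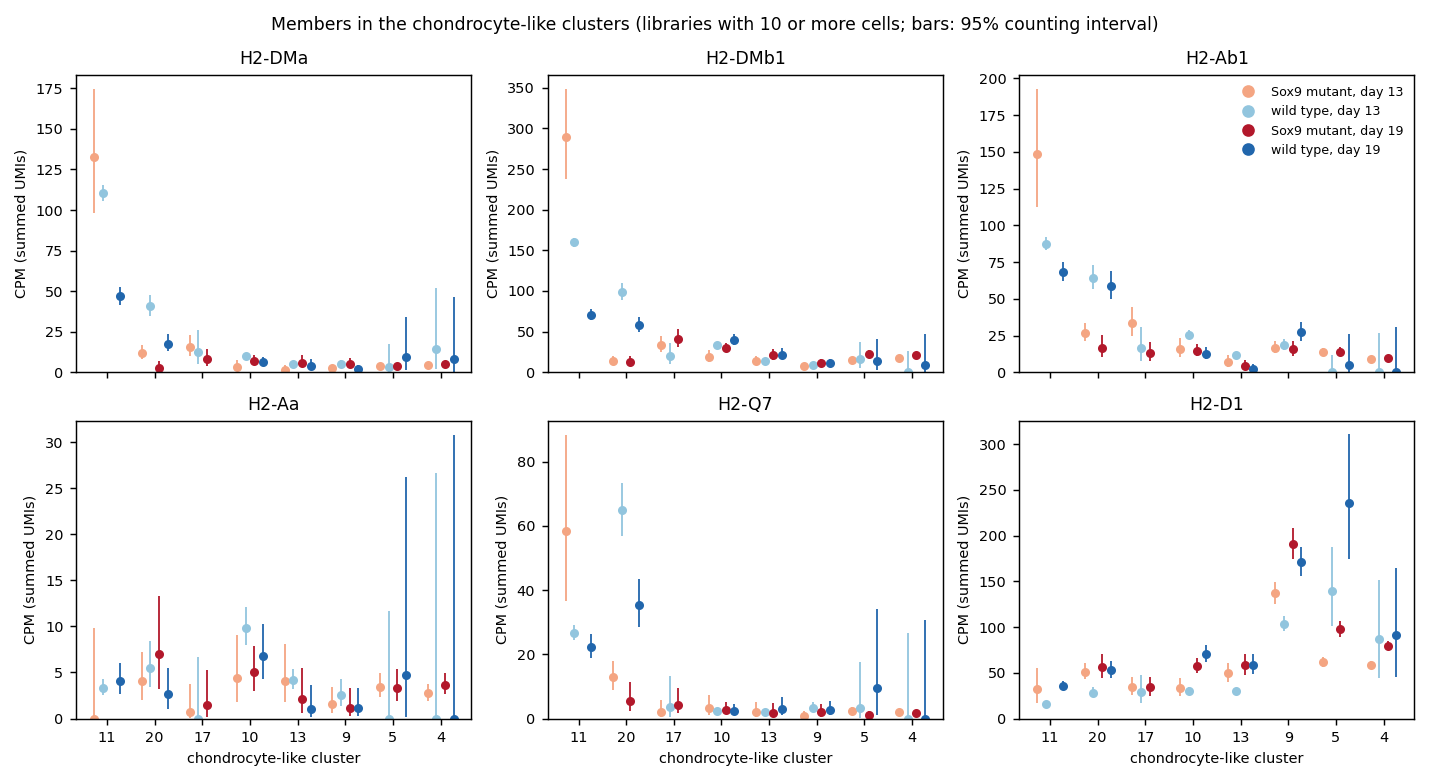
CPM of 6 members (panels) in the 8 chondrocyte-like clusters (x axis, by cluster number), 1 point per library with 10 or more cells, with its 95% counting interval. H2-DMa, H2-DMb1 and H2-Ab1 are highest in cluster 11 and, in the wild type, next in cluster 20, while H2-Aa stays below 10 CPM in every point and H2-D1 is higher in cluster 9 than in cluster 11.

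Leaving out clusters changed the list of members. Without cluster 11, 7 of 16 members were lower in the mutant (H2-DMa, H2-DMb1, H2-Ab1, H2-Q4, H2-Q6, H2-Q7 and H2-T22; 13.2% of all genes passed in either direction). Without clusters 4, 5 and 11, which 1 genotype nearly lacks, 5 of 15 were lower (H2-DMb1, H2-Ab1, H2-Q4, H2-Q7 and H2-T22; 10.5% of all genes passed). H2-Q7 had a log2 ratio of -1.60 ± 0.28 (SE, edgeR adjusted p = 0.000637) in that last set. H2-K1 no longer passed without cluster 11 (-0.07 ± 0.14, SE, edgeR adjusted p = 0.827) and lay on the other side of 0 without clusters 4, 5 and 11 (0.32 ± 0.16, SE, edgeR adjusted p = 0.261). These sets were chosen after the clusters were seen.

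**Figure D4:**
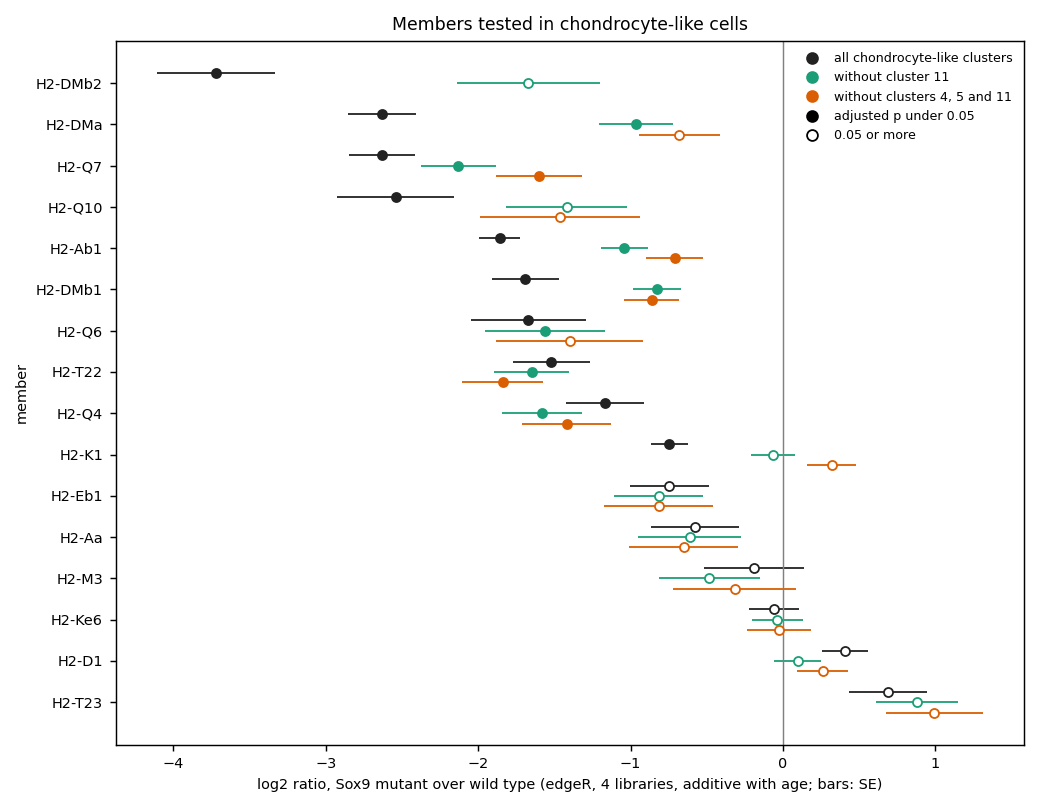
Log2 ratio of the 16 members tested, Sox9 mutant over wild type, with its SE, in all chondrocyte-like cells (black), without cluster 11 (green) and without clusters 4, 5 and 11 (orange); filled points have an adjusted p under 0.05. H2-Q7, H2-Ab1, H2-DMb1, H2-Q4 and H2-T22 stay filled in all 3 sets, while H2-K1 moves from -0.75 to 0.32.

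Genes that work with the members moved in both directions. Of 15 class I route genes tested in chondrocyte-like cells, 6 were higher in the mutant (B2m, the class I light chain; the peptide transporter genes Tap1 and Tap2; Tapbp, which bridges transporter and heavy chain; the peptide trimmer Erap1; and the regulator Irf1) and 2 were lower (Tapbpl and the immunoproteasome gene Psmb10). Their median log2 ratio was 0.54. The counts in this class are read against 12.4% of all genes tested higher, 11.1% lower and 23.5% changed in either direction. B2m was at 179 CPM in mutant and 76.1 CPM in wild type cells at day 13, and at 180 CPM in mutant and 91.9 CPM in wild type cells at day 19 (log2 ratio 0.91, edgeR adjusted p = 0.000865). Of 6 class II route genes tested, Rfx5 was higher (0.84) and Rfxap (-0.46) and Cd74 (-0.75) were lower on the log2 scale, and Ciita, the class II transactivator, did not pass (-0.87, edgeR adjusted p = 0.207). Of 10 interferon response genes tested, 4 were higher (Gbp2, Ifit1, Ifit3 and Ifngr1) and Rsad2 was lower. Without clusters 4, 5 and 11, Tapbp was the 1 of 14 class I route genes tested that passed (higher), and Cd74 the 1 of 5 class II route genes (lower). Of 8 interferon response genes tested in that set, Ifngr1 was higher and Socs1 lower, and none of the other genes of these lists passed. Of all genes tested in that set 10.5% passed, so these few calls say little about the lists. No gene of these lists passed for genotype in the fits of the other 5 classes as a whole. In the erythroid-like cluster 24, 3 of 5 interferon response genes tested passed, Isg15, Irf7 and Rsad2, all lower in the mutant (12.4% of all genes passed). In the B cell-like cluster 23, B2m was the 1 of 15 class I route genes that passed, higher in the mutant (271 of 8568 genes passed).

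H2-T22, a nonclassical heavy chain recognised by a subset of gamma delta T cells, was lower in the mutant across cell types. In B cell-like cells it was at 27.1 CPM in the mutant and 42.3 CPM in the wild type at day 13, and at 18.9 CPM in the mutant and 56.5 CPM in the wild type at day 19 (log2 ratio -1.23 ± 0.26, SE, edgeR adjusted p = 0.0376). This call held in 8 of 12 alternatives of processing, with log2 ratios of -1.30 to -1.18 and adjusted p up to 0.326. In fibroblast-like cells it was at 12.4 CPM in the mutant and 39.7 CPM in the wild type at day 13, and at 9.8 CPM in the mutant and 47.5 CPM in the wild type at day 19 (log2 ratio -1.86 ± 0.28, SE, edgeR adjusted p = 0.00532). In chondrocyte-like cells it was at 7.96 CPM in the mutant and 13.1 CPM in the wild type at day 13, and at 5.58 CPM in the mutant and 22.2 CPM in the wild type at day 19 (log2 ratio -1.52 ± 0.25, SE, edgeR adjusted p = 0.00287). In none of these classes did the genotypes overlap.

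The same direction was seen where fewer UMIs were counted. Monocyte-like cells had 11.7 CPM in the mutant and 41.2 CPM in the wild type at day 13 and 13.6 CPM in the mutant and 46.9 CPM in the wild type at day 19, with an edgeR adjusted p of 0.228. Neutrophil-like cells had 6.72 CPM in the mutant and 13.2 CPM in the wild type at day 13 and 5.7 CPM in the mutant and 36.2 CPM in the wild type at day 19, with an edgeR adjusted p of 0.0902. Their log2 ratio of CPM at day 13 was -0.97 (95% interval -2.58 to 0.642). In erythroid-like cells H2-T22 passed (-3.14 ± 0.72, SE, edgeR adjusted p = 0.0196) on few UMIs: 3 in the mutant and 4 in the wild type at day 13, and 2 in the mutant and 65 in the wild type at day 19. The log2 ratio of CPM there was -0.588 at day 13 (95% interval -3.36 to 1.98) and -3.93 at day 19 (95% interval -7.01 to -2.02). The call held in 5 of 11 alternatives there, with log2 ratios of -3.76 to -2.29 and adjusted p up to 0.401. H2-T22 was the 1 member that passed of 8 tested in erythroid-like cells (2 at an unadjusted p under 0.05; 4.85% of all genes passed) and of 8 in fibroblast-like cells (2 at an unadjusted p under 0.05; 2.01% of all genes passed). In a fit of cluster 24, the largest erythroid-like cluster, H2-T22 was not called. There 2 of 7 members tested passed, H2-K1 and H2-T23, both higher in the mutant (12.4% of all genes passed). With the cells of each library summed over all classes, H2-T22 and H2-DMb2 were the 2 of 21 members that passed (3.58% of all genes passed).

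No member was at least 2-fold apart, in the same direction at both ages, in every class that measured it: 0 of 7 members measured in 3 or more of the 6 classes with 50 or more cells in every library, against 0.271% of 5542 genes. This is a rule of size with no test. H2-T22 was 2-fold lower at both ages in 2 of the 5 classes that measured it. In the other 3 it was 1.56-fold to 1.96-fold lower at day 13 and 3-fold to 6.35-fold lower at day 19. It thus met the rule at 1.5-fold, as did 0.523% of the 5542 genes. Among the other 49 genes measured between the first and the last member, BC023719 was the 1 that met the 2-fold rule. This antisense gene (chr17:36111426-36117121, plus strand) starts 68.679 kb beyond the end of H2-T22 and was higher in the mutant. In fibroblast-like cells it was at 19 CPM in the mutant and 0 CPM in the wild type at day 13, and at 28.6 CPM in the mutant and 0 CPM in the wild type at day 19, where a count of 0 allows up to 1.16 CPM at day 13 and 4.32 CPM at day 19. In erythroid-like cells it was at 31.5 CPM in the mutant and 3.46 CPM in the wild type at day 13, and at 40.4 CPM in the mutant and 0 CPM in the wild type at day 19, with no overlap. The labels do not state the strain of either genotype, so strain haplotype at this complex and Sox9 deletion cannot be told apart in these libraries. Of the 90-base end windows of H2-T22, 13.2% are shared with H2-T10, and H2-T22, H2-T23 and H2-T24 overlap A930015D03Rik on the other strand. Over all kept cells A930015D03Rik was at 3.92 CPM in the mutant and 1.68 CPM in the wild type at day 13. At day 19 it was at 4.49 CPM in the mutant and 2.31 CPM in the wild type. It stayed under 20 CPM in every class, so the rule did not cover it.

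H2-T23, the Qa-1 heavy chain seen by receptors of natural killer cells, lies next to H2-T22 and was lower in the mutant in some classes and not in others. In neutrophil-like cells it was at 20.1 CPM in the mutant and 55.9 CPM in the wild type at day 13, and at 14 CPM in the mutant and 116 CPM in the wild type at day 19 (log2 ratio -2.44 ± 0.38, SE, edgeR adjusted p = 0.02). It was the 1 member of 7 tested that passed there (2 at an unadjusted p under 0.05; 1.12% of all genes passed). In monocyte-like cells it was at 32.5 CPM in the mutant and 94.2 CPM in the wild type at day 13, and at 46.2 CPM in the mutant and 133 CPM in the wild type at day 19 (edgeR adjusted p = 0.146). In erythroid-like cells it was at 56.1 CPM in the mutant and 38.1 CPM in the wild type at day 13, and at 102 CPM in the mutant and 48.3 CPM in the wild type at day 19 (edgeR adjusted p = 0.139). Cluster by cluster, it was lower in the mutant in cluster 18 of the B cell-like cells (log2 ratio -1.80, edgeR adjusted p = 6.77e-08; 3.28% of all genes passed) and higher in the erythroid-like cluster 24 (0.74, edgeR adjusted p = 0.00565; 12.4% of all genes passed). The difference between classes was not tested.

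**Figure D5:**
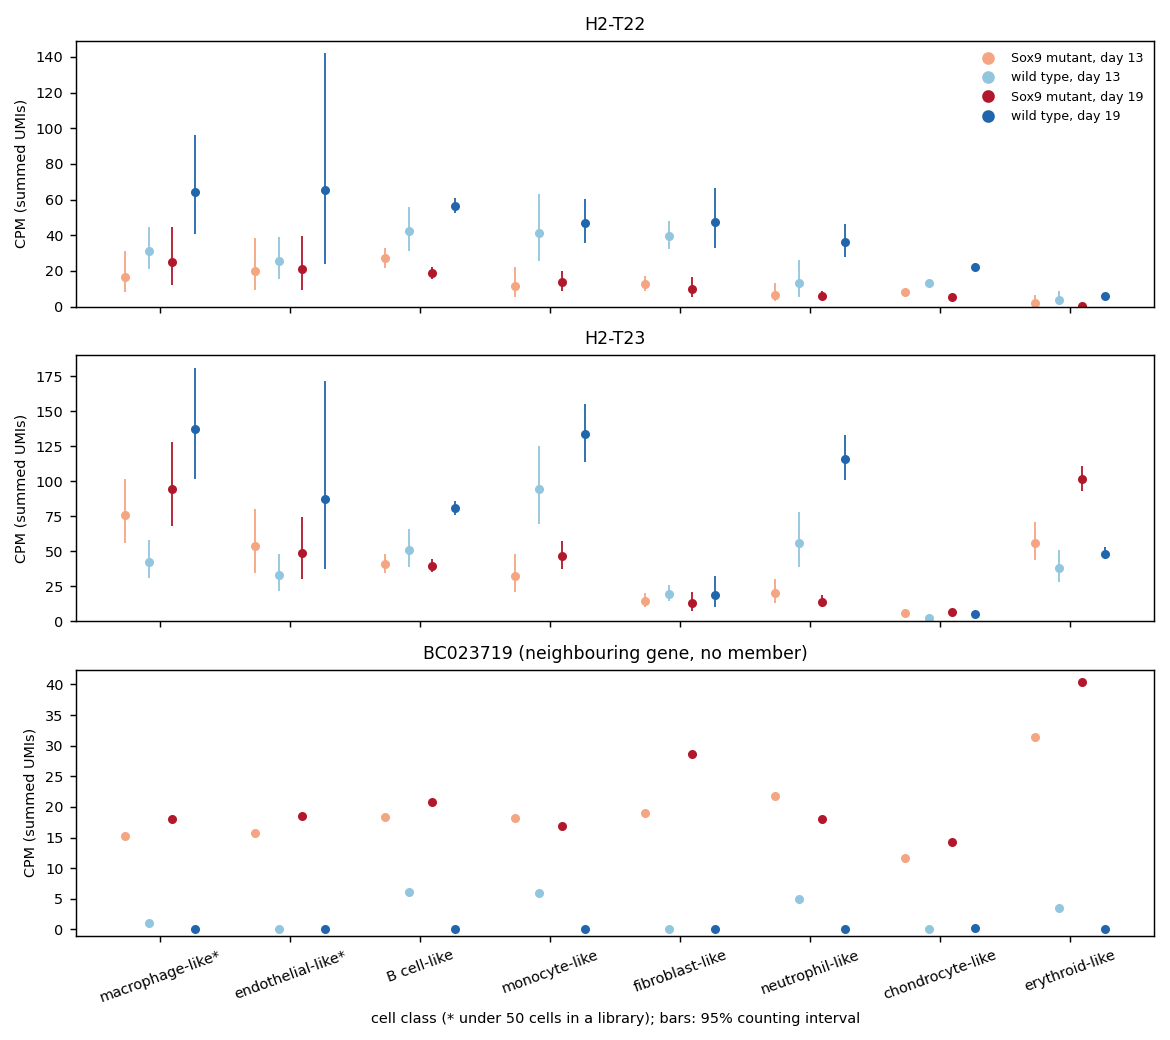
CPM of H2-T22, H2-T23 and the neighbouring gene BC023719 (panels) in 8 cell classes (x axis), 1 point per library; bars on the members are 95% counting intervals. The H2-T22 points lie lower in the mutant at both days in every class shown. The 95% interval of its log2 ratio spans 0 at day 13 in the macrophage-like, erythroid-like and neutrophil-like classes, and at both days in the endothelial-like class. H2-T23 is lower in the neutrophil-like and monocyte-like classes and not in the erythroid-like class, and BC023719 is at 0 or near it in the wild type at day 19.

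Age moved few members. Between day 19 and day 13, with genotype in the model, H2-T23 was higher at day 19 in erythroid-like cells (log2 ratio 1.06 ± 0.20, SE, edgeR adjusted p = 0.0121) and was the 1 of 8 members tested there that passed, against 4.6% of all genes. No member passed for age in chondrocyte-like cells (edgeR; 4 had an unadjusted p under 0.05; 0.268% of all genes passed). H2-D1 had the ratio 0.72 ± 0.15 (SE, edgeR adjusted p = 0.127) and H2-DMa -0.75 ± 0.22 (SE, edgeR adjusted p = 0.291) in that class. Fits of single clusters called a few members for age. H2-D1 was higher at day 19 in cluster 9 (0.55, edgeR adjusted p = 0.0409; 3.05% of all genes passed) and cluster 10 (0.98, edgeR adjusted p = 7.36e-05; 2.31% of all genes passed). H2-Ab1 was lower at day 19 in cluster 13 (-1.63, edgeR adjusted p = 0.0301; 1.6% of all genes passed), and H2-DMa in cluster 20 (-1.44, edgeR adjusted p = 0.0385; 0.464% of all genes passed). Without clusters 4, 5 and 11, H2-K1 was higher at day 19 (0.65, edgeR adjusted p = 0.0457; 1.5% of all genes passed).

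Across the 40 combinations of class and library, the genes most like H2-Aa by Pearson correlation of log2(CPM + 1) were Cd74 (0.969), Lat2 (0.943), Tifab (0.939), Ly86 (0.938) and Irf5 (0.926). Among the members the values were 0.978 for H2-Eb1, 0.935 for H2-Ab1, 0.924 for H2-DMa and 0.653 for H2-DMb1. These points share libraries and cell classes, some hold few cells, and the correlations are descriptions.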

How the data were processed

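The deposited files hold raw UMI counts per gene and barcode for each of 4 libraries; per the file headers, the authors made them with Cell Ranger 3.1.0, and the submitters' processing notes name the build mm10 and Seurat 3 with no role. The sources used here do not give whether introns or strand were counted. Kept cells had at least 500 detected genes and no more than 15% of UMIs from mitochondrial genes. The barcodes with the highest Scrublet scores (0.8% per 1000 barcodes) were then removed as doublets, 6.44% to 10.2% of each library, because the automatic threshold marked 0, 87, 302 and 1 barcodes.

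Cells were clustered with scanpy 1.11.5 (2000 variable genes without the members and Cd74, 30 principal components, 15 neighbours, Leiden resolution 1.0). Clusters were named from marker lists, and 6 of the 8 chondrocyte-like clusters (4, 5, 9, 10, 17 and 20) by a rule added after the clusters were seen. It took clusters with under 3 markers of any class among 25 leading genes, at least 10 chondrocyte markers 3-fold above blood clusters and Ptprc under 20 CPM, and passed over clusters of low UMI counts. Cluster 12, led by Mepe and Chad, stayed unnamed because osteoblast and chondrocyte markers were both among its leading genes, with 560 mutant and 118 wild type cells at day 13 and 321 mutant and 65 wild type cells at day 19.

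UMIs were summed per class and library and tested with edgeR 4.0.16 (TMM scaling, filterByExpr, quasi-likelihood) in classes with 50 or more cells in every library. A member counted as measured at 20 CPM in at least 1 library. The fits were tested on simulated data with the same spread for all genes, no age effect and no genotype difference that varied with age. How they act on members that turn between ages was not tested. Ratios at each age have 95% exact binomial intervals that cover counting error only. Alternatives included DESeq2 1.42.0, other scalings, filters and clusterings. Genes were named where they were members, passed a test, or stood in the lists of presentation and interferon genes. The interferon and kappa B motifs were searched as 9-letter cores of the planned motifs. Members, lists and comparisons were chosen with earlier results of these data known. No library had a replicate.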

Additional observations from a re-analysis of the deposited data

Results flagged for a closer look

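Several members moved in opposite directions at the 2 ages, each beyond the counting intervals of its ratios, which take UMIs as independent. In monocyte-like cells the log2 ratio of CPM, mutant over wild type, was -1.67 at day 13 and 0.43 at day 19 for H2-Ab1, -1.55 at day 13 and 0.57 at day 19 for H2-Aa, and -1.77 at day 13 and 0.61 at day 19 for H2-Eb1. There 8 of 122 mutant and 18 of 135 wild type cells at day 13, and 35 of 347 mutant and 13 of 160 wild type cells at day 19, held nearly all class II UMIs, a share of cells that was lower in the mutant at day 13 and higher at day 19; its part in the result was not tested. In B cell-like cells it was -0.91 at day 13 and 0.47 at day 19 for H2-Aa, and -1.38 at day 13 and 0.26 at day 19 for H2-Eb1. Cluster 15, high in class II, made up 88 of 901 mutant and 126 of 331 wild type B cell-like cells at day 13, and 236 of 1902 mutant and 297 of 3052 wild type cells at day 19. Within clusters H2-Eb1 did not turn: it had -1.29 at day 13 and -0.12 at day 19 in cluster 15, 0.59 at day 13 and 0.45 at day 19 in cluster 18, and 0.59 at day 13 and 0.48 at day 19 in cluster 19. H2-Aa turned in cluster 15 (-0.90 at day 13 and 0.43 at day 19) and not in cluster 18 (0.19 at day 13 and 0.39 at day 19) or cluster 19 (0.24 at day 13 and 0.54 at day 19). H2-D1 had 0.21 at day 13 and -0.18 at day 19 in B cell-like cells, and 0.24 at day 13 and -0.77 at day 19 in fibroblast-like cells. H2-Q10 had -0.48 at day 13 and 1.05 at day 19 in neutrophil-like cells. With 1 library for each genotype and age, the difference between ages was not tested.

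Other members moved in opposite directions in different classes at both ages. H2-K1 was lower in mutant chondrocyte-like cells, at -0.44 at day 13 and -0.67 at day 19, and on the other side of 0 without clusters 4, 5 and 11, which 1 genotype nearly lacks (0.78 at day 13 and 0.14 at day 19). It was higher in mutant erythroid-like cells (1.15 at day 13 and 0.60 at day 19), neutrophil-like cells (0.46 at day 13 and 0.26 at day 19) and B cell-like cells (0.28 at day 13 and 0.068 at day 19). H2-T23 was higher in mutant chondrocyte-like cells (1.28 at day 13 and 0.46 at day 19) and lower in mutant monocyte-like cells (-1.53 at both ages) and neutrophil-like cells (-1.47 at day 13 and -3.06 at day 19). These differences between classes were not tested.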

How the results depend on the processing

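No paired analysis was possible because each genotype and age had 1 library, and leaving out 1 of the 4 would leave no residual degrees of freedom. Of 268 values of single members, 229 kept direction and side of the threshold, 21 no longer passed, 17 newly passed and 1 reversed: H2-K1 in chondrocyte-like cells, at 0.32 without clusters 4, 5 and 11. The cause of each change below was not tested.

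The 10 members lower in chondrocyte-like cells became 5 without clusters 4, 5 and 11, while all genes called went from 23.5% to 10.5%. Summing all kept cells gave 2 in place of each class's count, with 3.58% of all genes called. Below, brackets give all genes called, of those tested, because these counts moved as well. In B cell-like cells the main fit gave 1 member (204 of 10932 genes). DESeq2 (73 of 18912) and genotype alone (8 of 10932) gave 0. Members among the variable genes (113 of 10930) and resolution 0.5 (91 of 10919) also gave 0. Resolution 2.0 (335 of 10692) gave 2 and no filter (392 of 18912) gave 3. In erythroid-like cells the main fit gave 1 (384 of 7919). DESeq2 (77 of 15921), no scaling (127 of 7919) and genotype alone (8 of 7919) gave 0. The 10% mitochondrial limit (40 of 8071), members among the variable genes (100 of 7415) and resolution 0.5 (303 of 7861) also gave 0. In fibroblast-like cells the main fit gave 1 (197 of 9788) and DESeq2 gave 0 (40 of 16986). In monocyte-like cells the main fit gave 0 (8 of 7307). No scaling (41 of 7307) and keeping doublets (81 of 8286) gave 1, and 200 genes (99 of 6939) and the 10% limit (69 of 7307) gave 2. In neutrophil-like cells the main fit gave 1 (70 of 6256). Genotype alone (0 of 6256) and keeping doublets (40 of 9606) gave 0. The 10% limit (365 of 7392) and resolution 0.5 (217 of 7415) gave 2, and no filter (282 of 15497) gave 3. Members apart in every class numbered 0 of 7 at 2-fold and 1 of 7 at 1.5-fold, against 0.271% and 0.523% of 5542 genes.

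Summed class II in monocyte-like cells, 2050 CPM over all libraries, was 193 CPM with 200 or more genes, 1920 CPM with 1000 or more, 1960 CPM with doublets kept and 2240 CPM with members among the variable genes; in B cell-like cells 390 CPM became 363 CPM with 1000 or more genes. Summed class I in macrophage-like cells, 2730 CPM, was 2940 CPM with 200 or more genes, 2960 CPM with 1000 or more and 2390 CPM with doublets kept; in chondrocyte-like cells 148 CPM became 151 CPM with 200 or more genes and 152 CPM with doublets kept. H2-DMb1 in chondrocyte-like cells, 44.9 CPM, was 43 CPM with doublets kept. The share of chondrocyte-like cells with a class II UMI at 2000 UMIs was 2.86% in the mutant and 7.88% in the wild type at day 13 and 3.86% in the mutant and 5.75% in the wild type at day 19. At 1000 UMIs it was 1.9% and 3.99% at day 13 and 1.67% and 3.98% at day 19, mutant then wild type, and with no thinning 14.9% and 28.2% at day 13 and 13.6% and 31.9% at day 19.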

Other observations

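Some members stood out in cells that entered no comparison by class. In cluster 0, left unnamed because it mixed basophil and mast cell genes (Mcpt8, Prss34), platelet genes (Pf4, Ppbp) and lymphocyte genes (Gzma, Trbc1), H2-Q7 was at 85.1 CPM in the mutant and 157 CPM in the wild type at day 13, and at 59 CPM in the mutant and 85.3 CPM in the wild type at day 19. H2-Oa, otherwise a gene of B cell-like and dendritic cell-like cells here, was at 36 CPM in the mutant and 28.1 CPM in the wild type of that cluster at day 13, and at 18.4 CPM in the mutant and 34.5 CPM in the wild type at day 19. In cluster 25, led by the granule genes Elane, Prtn3 and Mpo, H2-DMa was at 75.2 CPM in the mutant and 34.6 CPM in the wild type at day 13, and at 55.3 CPM in the mutant and 57.4 CPM in the wild type at day 19, while H2-Aa was at 0 to 2.22 CPM.

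In osteoblast-like cells, nearly all of them from mutant libraries (747 mutant and 21 wild type cells at day 13, 405 mutant and 7 wild type cells at day 19), the mutant had H2-Ab1 at 20.6 CPM and H2-Aa at 0.477 CPM at day 13, and H2-Ab1 at 21.4 CPM and H2-Aa at 9.58 CPM at day 19. Cd74 was at 3.06 CPM at day 13 and 27.5 CPM at day 19 in these mutant cells. H2-T3, a nonclassical class I gene that was under 100 UMIs in all, had 16 UMIs in the mutant and 2 in the wild type at day 13 and 13 in the mutant and 0 in the wild type at day 19 over all kept cells, with an edgeR log2 ratio of 3.51 ± 0.95 (SE) and an adjusted p of 0.0933. It was chosen for mention after its values were seen.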
